A study of Mus musculus with 36 samples.

Results

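The writers and erasers of DNA methylation were followed in regenerating mouse liver as 7 genes: Dnmt1, Uhrf1, Dnmt3a, Dnmt3b, Tet1, Tet2 and Tet3. They were taken by symbol. All 7 were among the 21955 symbols listed in each count table, and all 7 passed the filter on low counts, which left 13436 genes for testing. Liver RNA of the inbred strain C57BL/6JN was sequenced in young animals of 4 months and old animals of 18 months. The 6 sampling times of each age are labelled before, 48, 72, 96, 120 and 240. These labels carry no unit, and they name neither the injury that started regeneration nor any genotype beyond the strain, which both ages share. Every group of age and time held 3 libraries, described as biological replicates, and there were 36 libraries in all. The RNA was total RNA of whole tissue after removal of ribosomal RNA, so each value averages over every cell type of the liver.

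Methyl groups on cytosine are placed mostly at CpG sites. DNMT3A and DNMT3B place new ones, and DNMT1 copies the pattern of the old strand onto the newly made strand when DNA is replicated. UHRF1 binds CpG sites that are methylated on 1 strand only and brings DNMT1 to them, so the pair works behind the replication fork. TET1, TET2 and TET3 oxidise methylated cytosine, which starts its removal through base excision repair or through dilution over cell divisions. Most hepatocytes of an uninjured liver are out of the cell cycle and replicate their DNA during regeneration, which is when the copying enzymes are needed most.

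Dnmt1 and Uhrf1 were the members called higher in both ages, and their promoters are shown for that reason. RefSeq promoter windows on GRCm38.p6, each 300 bases long and running from 250 bases before a transcript start to 50 after it, were matched for all 7 members, 12 windows in all. The windows were searched on both strands for TTTCCCGC, TTTCGCGC, TTTGGCGC and TTTGCCGC, forms of the site bound by E2F factors, the main transcription factors of the S phase. A match was found in 2 of the 12 windows, 1 of 3 of Dnmt1 and 1 of 2 of Uhrf1, and in 2.26% of all 32851 windows of that length. Capitals mark the matches, and the sequences run 5′ to 3′ on the strand of the gene.
Dnmt1, chr9:20952574-20952873, minus strand: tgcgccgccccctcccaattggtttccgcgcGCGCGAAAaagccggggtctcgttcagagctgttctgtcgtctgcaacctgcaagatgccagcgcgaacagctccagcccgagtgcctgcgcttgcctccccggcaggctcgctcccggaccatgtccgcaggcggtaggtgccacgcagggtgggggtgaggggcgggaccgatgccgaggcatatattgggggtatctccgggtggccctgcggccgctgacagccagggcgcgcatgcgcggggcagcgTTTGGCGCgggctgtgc
Uhrf1, chr17:56304063-56304362, plus strand: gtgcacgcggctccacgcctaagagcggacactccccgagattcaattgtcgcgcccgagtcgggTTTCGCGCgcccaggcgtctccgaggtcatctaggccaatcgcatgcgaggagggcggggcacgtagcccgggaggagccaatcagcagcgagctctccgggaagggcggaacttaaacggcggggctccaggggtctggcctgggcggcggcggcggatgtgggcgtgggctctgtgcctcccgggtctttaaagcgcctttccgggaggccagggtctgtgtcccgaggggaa
In Dnmt1 the matches began 219 bases before the start and 34 bases after it, and in Uhrf1 185 bases before it. None overlapped a CCAAT box, which was also searched and occurs in 37.4% of all windows. The letters TTTGAA were searched as well and occur in 17.9% of all windows. They were found in another window of Dnmt1 and in the window of Dnmt3b. Both windows held 33 CG dinucleotides, against a median of 7 over all windows. Every searched E2F form contains CG, so the 2.26% is not the share among windows of like CG content. The windows of Dnmt3a, Dnmt3b, Tet1, Tet2 and Tet3 held 17 to 57 CG dinucleotides and no match to the E2F forms. A match describes the sequence only, and binding was not measured.

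On GRCm38, GENCODE M21 places Dnmt1 at chr9:20907209-20959888 and Uhrf1 at chr17:56303321-56323486. Dnmt3a lies at chr12:3806007-3914443 and Dnmt3b at chr2:153649450-153687730. Tet1 lies at chr10:62804570-62908996, Tet2 at chr3:133463679-133545139 and Tet3 at chr6:83362373-83459084. The printed Dnmt1 window lies inside the span of its gene, since other starts of Dnmt1 lie upstream of it. An antisense gene, Dnmt3aos, overlaps Dnmt3a, and it averaged 1.52 CPM (counts per 1000000 of the scaled library total), with a highest value of 3.56 CPM. Whether the counting used strand is not given in the sources used here.

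Library totals ran from 2328233 to 6034446 counts, with a median of 4439170. At that depth Tet1 had between 1 and 17 counts in a library and Dnmt3b between 2 and 38, so both are measured coarsely. Transcripts of 4 genes of the Y chromosome summed to 177 to 321 CPM in 12 libraries, 1 per group, and to at most 0.212 CPM elsewhere. Tests were repeated without these 12 libraries. The 8 hepatocyte markers summed to 18224 to 31913 CPM over the libraries. The sums were 242 to 486 CPM for 7 endothelial markers, 124 to 1248 CPM for 7 macrophage markers, 229 to 915 CPM for 7 stellate and fibroblast markers and 25.2 to 285 CPM for 5 bile duct markers. T and B cell markers reached at most 26.8 CPM, neutrophil markers 30.2 CPM and the 4 erythroid markers listed 34.3 CPM. The old libraries at 48 were unlike each other. Mki67, a marker of cycling cells, had 154 CPM, 14.0 CPM and 561 CPM in replicates 1, 2 and 3, against 1404 to 2867 CPM in the young libraries at 48.

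Compared per kilobase of merged exons, as the mean over the 36 libraries, Tet3 (5.56 CPM per kb) and Tet2 (5.12 CPM per kb) had the highest levels. Dnmt1 (4.02 CPM per kb) and Dnmt3a (3.75 CPM per kb) followed, then Uhrf1 (2.56 CPM per kb). Dnmt3b (0.547 CPM per kb) and Tet1 (0.0899 CPM per kb) were far lower. The order differed between times. In young liver before, Uhrf1 stood at 0.336 CPM per kb and Dnmt1 at 2.2 CPM per kb, whereas at 48 Uhrf1 reached 8.39 and Dnmt1 7.65 CPM per kb. These levels assume that reads fall evenly over exons, which libraries of total RNA with unspliced transcripts need not do.

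**Figure D1:**
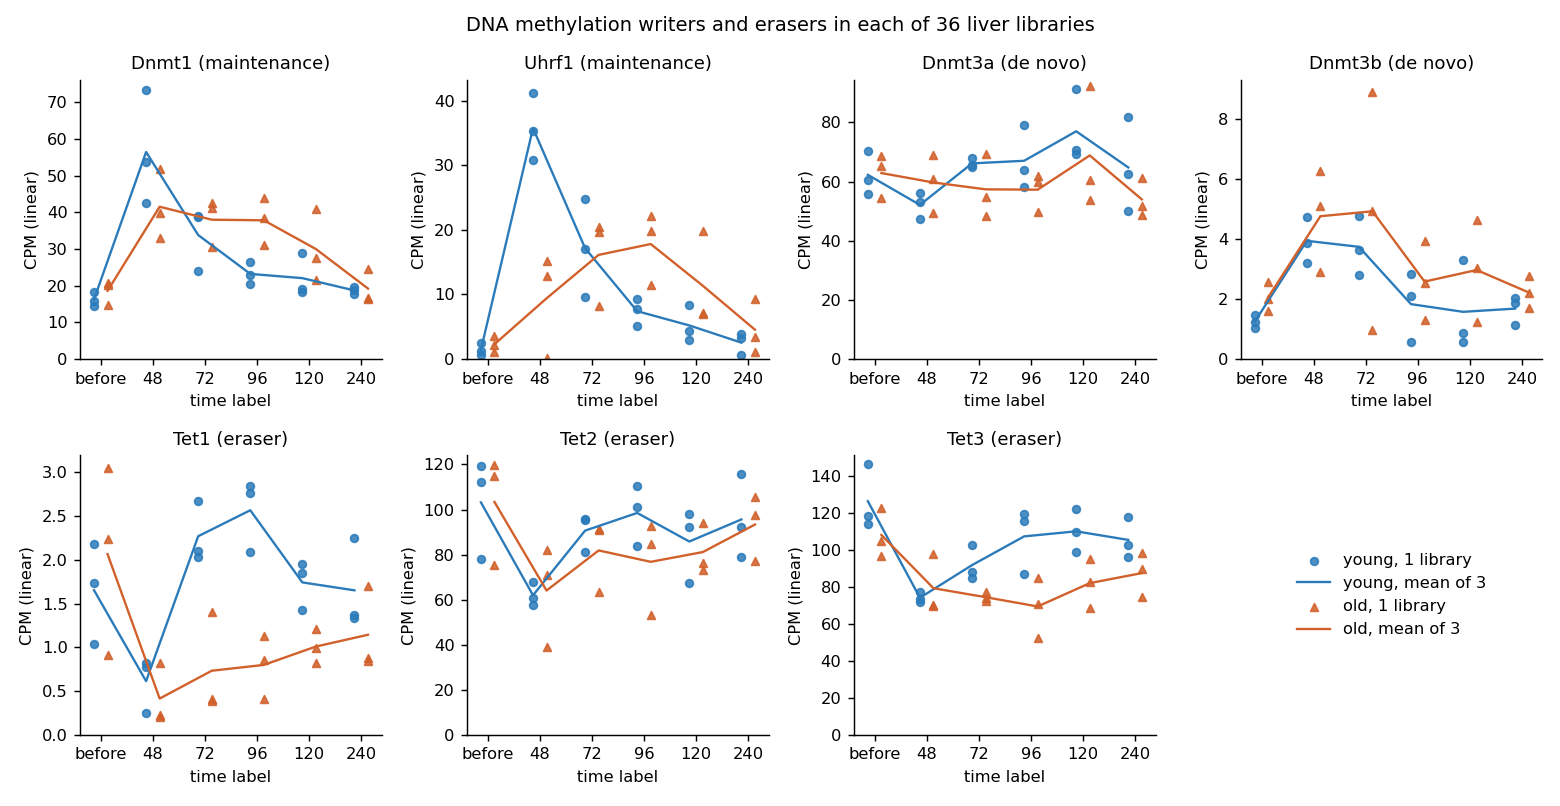
Level of each gene in CPM (linear axis from 0) against the time label, with 1 point per library and lines through the means of the 3 libraries of a group, young in blue circles and old in orange triangles. Uhrf1 and Dnmt1 peak at 48 in young liver, at group means of 35.7 and 56.4 CPM. Both lie above their level before, without overlap, at 48, 72 and 96 in young liver and at 72, 96 and 120 in old liver. Uhrf1 also does so at young 120, and Dnmt1 at old 48. Tet2 and Tet3 dip, and Dnmt3a stays between 47.2 and 92.2 CPM in all libraries.

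The maintenance pair rose in both ages, with its highest mean at 48 in young liver. Dnmt1, the copying methyltransferase, was at 15.8, 18.4 and 14.5 CPM in the young libraries before and at 73.2, 42.4 and 53.7 CPM at 48. The lowest library at 48 stood above the highest before, and the ratio of the means was 3.47. On the log2 scale Dnmt1 rose by 1.80 ± 0.25 (SE, edgeR adjusted p 6.99e-06). At 72 the young libraries had 38.6, 38.9 and 23.9 CPM of Dnmt1, again without overlap with before, a rise of 1.06 ± 0.25 on the log2 scale (edgeR adjusted p 0.00410). Among the marker lists, neutrophil markers were higher at young 48 (2.71 to 7.68 CPM summed) and young 72 (4.33 to 5.83 CPM) than before (0.995 to 1.94 CPM), and their part in these rises was not tested. In whole tissue, more cells with the transcript and more transcript per cell cannot be told apart. At 48 in young liver 4 of the 7 members were called, against 21.9% of all genes tested, and at 72 it was 2 of 7, against 17.4%.

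Uhrf1, which guides DNMT1 to half-methylated sites, had the largest change of the 7 genes. Before, its level in the young libraries was 0.624, 1.24 and 2.42 CPM, from 3, 5 and 10 counts. At 48 they held 41.2, 30.8 and 35.2 CPM, far above every library before. The means differed 25-fold, and the fitted log2 change of Uhrf1 was 4.65 ± 0.83 (SE, edgeR adjusted p 0.000166). At 72 the young values were 17.0, 24.8 and 9.67 CPM, still above each library before, with a log2 change of 3.59 ± 0.84 (edgeR adjusted p 0.00455). The young rises of Dnmt1 and Uhrf1 at 48 and 72 passed the test in 15 of 15 alternative analyses.

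Later in young liver the pair came back towards its starting level. Dnmt1 averaged 23.2 ± 3.0 CPM at 96 (SD, n = 3), 22.1 ± 5.88 CPM at 120 and 18.7 ± 0.963 CPM at 240. Uhrf1 averaged 7.42 ± 2.08, 5.21 ± 2.82 and 2.55 ± 1.75 CPM at these times. The edgeR test called 0 of the 7 members in young liver at 96, where 1.4% of all genes were called, at 120 (0.581%) and at 240 (0.246%). At an unadjusted p under 0.05 there were 2 members at 96, 1 at 120 and 0 at 240, and DESeq2 called 0 at each.

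In old liver Dnmt1 rose at 48, 72 and 96. It had 20.7, 20.3 and 14.8 CPM before, and 39.8, 51.9 and 32.9 CPM at 48. Every library at 48 exceeded every library before, and the log2 change was 1.16 ± 0.24 (SE, edgeR adjusted p 0.00122). At 72 Dnmt1 had 41.0, 30.4 and 42.5 CPM and at 96 it had 43.8, 38.5 and 31.2 CPM, close to its level at 48. The log2 changes were 1.03 ± 0.25 at 72 (edgeR adjusted p 0.00616) and 1.02 ± 0.25 at 96 (edgeR adjusted p 0.0122). In old liver the test called 3 of 7 members at 48, against 24.1% of all genes, 3 of 7 at 72, against 12.4%, and 3 of 7 at 96, against 6.82%. The call of Dnmt1 at 48 was lost in a fit of the 6 libraries compared (adjusted p 0.0557), that at 72 without old before replicate 3 (adjusted p 0.0522), and that at 96 in 3 of 15 alternatives (without old before replicate 3, without old 96 replicate 1, and without the libraries that hold Y-linked transcripts).

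Uhrf1 in old liver was uneven at 48. Before, the old libraries had 3.52, 2.23 and 1.14 CPM of Uhrf1. At 48 replicates 1 and 3 had 15.1 and 12.9 CPM, but replicate 2 held 1 count, or 0.203 CPM, where 3 counts correspond to 0.608 CPM. The groups therefore overlapped, and the log2 change of 2.02 did not pass the edgeR test (adjusted p 0.0656). Without old 48 replicate 2 it was 2.62 (edgeR adjusted p 0.00718). Replicate 2 was also the library with 14.0 CPM of Mki67, yet it had the highest Dnmt1 of the 3 old libraries at 48, 51.9 CPM. It had the highest Dnmt3b of these libraries as well, 6.28 CPM.

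At 72 the old libraries held 19.7, 8.19 and 20.5 CPM of Uhrf1 and at 96 they held 19.8, 22.1 and 11.5 CPM. All of these lay above the old libraries before. Uhrf1 rose by 2.81 ± 0.78 on the log2 scale at 72 (SE, edgeR adjusted p 0.0183) and by 2.94 ± 0.78 at 96 (edgeR adjusted p 0.0234). Of the alternatives, 4 of 15 alternatives lost the call at 72 and 5 of 15 the call at 96, among them those without old before replicate 2 or 3, old 72 replicate 3 and old 96 replicate 1 or 2 (adjusted p 0.0643 to 0.129). At 120 Uhrf1 had 19.9, 6.99 and 7.16 CPM and at 240 it had 9.24, 1.02 and 3.40 CPM. In old liver the edgeR test called 0 of 7 members at 120, against 3.87% of all genes, and 0 at 240, against 0.156%. There were 3 and 0 members at an unadjusted p under 0.05, and DESeq2 called 1 (Uhrf1) and 0.

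**Figure D2:**
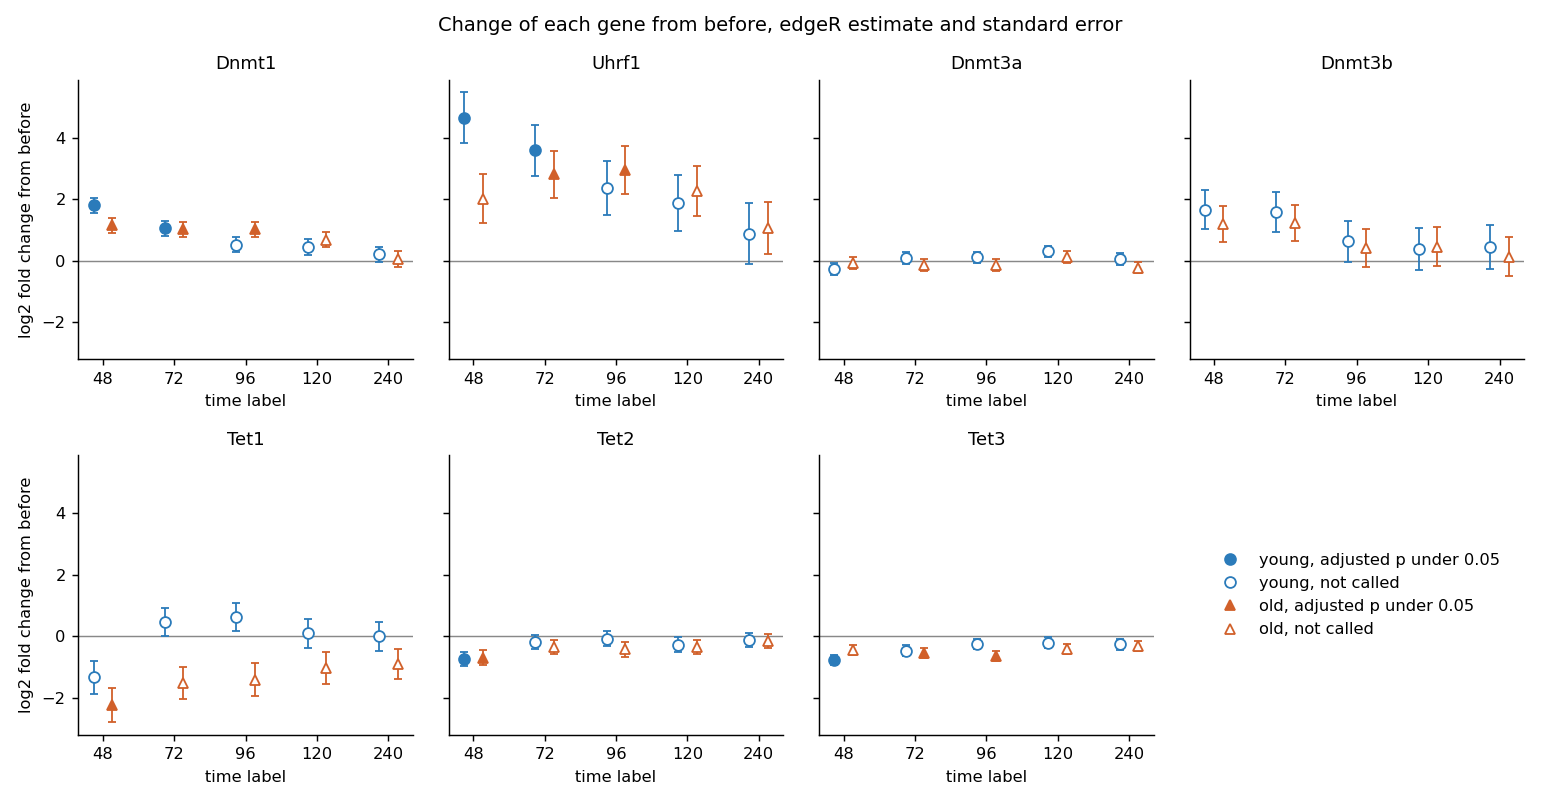
Log2 fold change of each gene from before (vertical axis) at each later time label, as edgeR estimates with standard errors, for young (circles) and old (triangles), filled where the adjusted p was under 0.05. Dnmt1 and Uhrf1 lie above 0 at 48 to 96, from 0.52 to 4.65, Tet3 lies below 0 throughout, from -0.20 to -0.77, and Dnmt3a stays within 0.31 of 0.

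Counts of Uhrf1 were set against those of Dnmt1 within each library. In young liver there were 3.95, 6.76 and 16.7 counts of Uhrf1 per 100 of Dnmt1 before, and 56.2, 72.6 and 65.6 at 48. The ratio at 72 was 44.1, 63.8 and 40.4. Every young library at 48 and 72 was above every young library before. In old liver the ratio was 17.0, 11 and 7.69 before, 48.0, 26.9 and 48.2 at 72, and 45.1, 57.5 and 36.9 at 96. At 48 it was 38.0 and 39.1 in old replicates 1 and 3 and 0.391 in old replicate 2, the lowest of all 36 libraries.

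**Figure D3:**
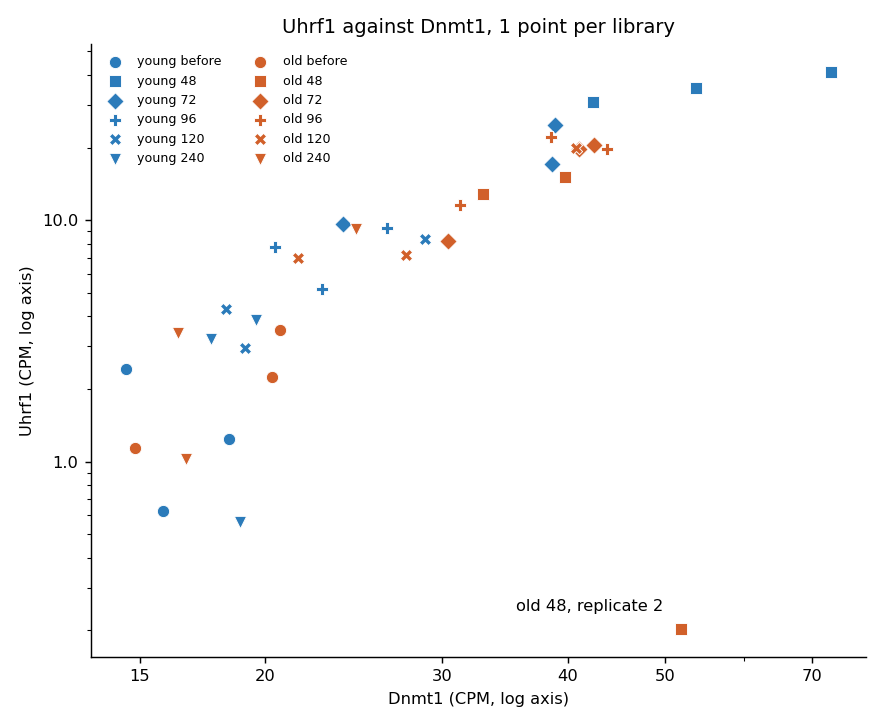
Uhrf1 against Dnmt1, both in CPM on log axes, with 1 point per library, coloured by age and shaped by time label. Libraries with more Dnmt1 mostly have more Uhrf1, except for old 48 replicate 2, which has 51.9 CPM of Dnmt1 and 0.203 CPM of Uhrf1.

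Of the de novo methyltransferases, Dnmt3a was the steadiest of the members. It ranged from 47.2 to 92.2 CPM over all 36 libraries, and its group means ran from 52.1 ± 4.52 CPM (SD, n = 3; young 48) to 77.0 ± 12.3 CPM (young 120). Its log2 change from before lay between -0.26 and 0.31 in the 10 comparisons of a later time with before, and none passed the edgeR test (lowest adjusted p 0.357, with 0 at an unadjusted p under 0.05). Dnmt3b, the second de novo enzyme, had few counts. The young libraries held 1.04, 1.24 and 1.45 CPM of Dnmt3b before, 4.74, 3.88 and 3.20 CPM at 48, and 4.78, 3.65 and 2.80 CPM at 72. The groups did not overlap, but the log2 changes of 1.66 ± 0.63 at 48 (edgeR adjusted p 0.0576) and 1.59 ± 0.63 at 72 (edgeR adjusted p 0.0827) did not pass. Dnmt3b at 48 passed in 5 of 15 alternatives, and at 72 in 3 of 15. Old libraries had 2.58, 2.01 and 1.60 CPM of Dnmt3b before and 2.89, 6.28 and 5.11 CPM at 48. At 72 they had 4.93, 8.89 and 0.957 CPM, of which the last lay below every old library before.

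Among the erasers, Tet2 and Tet3 fell at 48 in young liver. Tet3 was at 146, 118 and 114 CPM before and at 73.4, 71.7 and 77.1 CPM at 48. The groups were far apart relative to their spread, and Tet3 fell by 0.77 ± 0.17 on the log2 scale (SE, edgeR adjusted p 0.00113), a call kept in 15 of 15 alternatives. Tet2 was at 78.2, 112 and 119 CPM before and at 60.6, 67.8 and 57.4 CPM at 48, without overlap. It fell by 0.74 ± 0.24 (SE, edgeR adjusted p 0.0251), but the call was lost in 5 of 15 alternatives, among them total-count scaling (adjusted p 0.0634) and leaving out young before replicate 2 or 3 or young 48 replicate 1 or 3 (adjusted p 0.0803 to 0.105). The summed markers of 3 cell types were also lower at young 48 than before without overlap: endothelium at 242 to 335 CPM against 416 to 454 CPM, bile duct at 28.6 to 40.4 CPM against 40.6 to 49.4 CPM and hepatocytes at 23053 to 24385 CPM against 24618 to 27239 CPM. Their part in the lower Tet2 and Tet3 was not tested. At 72 Tet3 was still at 84.6 to 103 CPM in young liver, below every library before, but edgeR did not call it. Endothelial markers, at 274 to 329 CPM, were also below every young library before at 72, and their part was not tested. By 96 Tet2 and Tet3 were near their level before, with means of 98.5 ± 13.5 CPM for Tet2 and 107 ± 17.8 CPM for Tet3 (SD, n = 3).

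In old liver Tet3 fell at 72 and 96. It was at 96.7, 123 and 104 CPM before, and at 69.6, 97.6 and 70.4 CPM at 48, where the groups overlapped and the log2 change of -0.45 did not pass (edgeR adjusted p 0.0502). At 72 Tet3 had 72.0, 73.7 and 77.3 CPM and at 96 it had 52.4, 70.9 and 84.7 CPM, all below the old libraries before. It fell by 0.54 ± 0.17 at 72 (SE, edgeR adjusted p 0.0337) and by 0.63 ± 0.17 at 96 (edgeR adjusted p 0.0210) on the log2 scale. These calls were lost in 8 and 7 of 15 alternatives, with adjusted p up to 0.156 and 0.163, in each without old before replicate 2 or 3, and without any 1 of the old 72 libraries, or old 96 replicate 1 or 2. Endothelial markers summed to 358 to 486 CPM in old liver before, to 281 to 334 CPM at 72 and to 289 to 326 CPM at 96, also without overlap, and T and B cell markers to 9.35 to 21.9, 4.21 to 6.98 and 4.72 to 5.91 CPM. Their part in the lower Tet3 was not tested. Tet2 in old liver was at 75.4, 120 and 115 CPM before and at 38.9, 82.2 and 71.0 CPM at 48. The groups overlapped, and Tet2 fell by 0.69 ± 0.24 (SE, edgeR adjusted p 0.0335), and 6 of 15 alternatives did not call it, among them those without old before replicate 2 or 3 or old 48 replicate 1.

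Tet1, the least abundant eraser, was at the edge of what these libraries can show. The old libraries before had 13, 10 and 4 counts of Tet1, or 3.05, 2.23 and 0.913 CPM, and at 48 they had 1, 1 and 4 counts, or 0.222, 0.203 and 0.818 CPM. The log2 change was -2.23 ± 0.56 (SE, edgeR adjusted p 0.00487). It was -1.57 without the libraries that hold Y-linked transcripts, where it did not pass (adjusted p 0.122). In young liver Tet1 had 1.04, 1.74 and 2.18 CPM before and 0.817, 0.776 and 0.246 CPM at 48, with a log2 change of -1.33 ± 0.54 that did not pass (edgeR adjusted p 0.0762). At 72 the young libraries had 2.10, 2.67 and 2.04 CPM of Tet1 again, while the old ones had 0.410, 1.40 and 0.383 CPM.

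The ages were compared directly at each time. By edgeR, 0 of 7 members were called before (0.0595% of all genes called), at 48 (11.2%), at 72 (0%), at 96 (0.171%), at 120 (0%) and at 240 (0.0149%). At an unadjusted p under 0.05 there were 0, 1, 1, 3, 1 and 0 members in this order, and DESeq2 called 1 at 48 (Uhrf1), 1 at 96 (Tet3) and 0 at the other times. Uhrf1 at 48 came closest. The old libraries at 48 all lay below the young ones, and the log2 difference of old from young was -1.93 ± 0.65 (SE, edgeR adjusted p 0.0549). It passed in 5 of 15 alternatives, over which the adjusted p ran from 0.0389 to 0.376. Without old 48 replicate 2 the difference was -1.37 (adjusted p 0.183). At 96 the old libraries were the higher ones. Uhrf1 had 19.8, 22.1 and 11.5 CPM in old and 5.20, 9.31 and 7.74 CPM in young libraries, and Dnmt1 43.8, 38.5 and 31.2 CPM against 22.8, 26.4 and 20.5 CPM. Neither overlapped between the ages, but the share of all genes without overlap at 96 is not given here. The log2 difference of Uhrf1 at 96 was 1.27, and its edgeR test did not reach an unadjusted p under 0.05. The log2 difference of Dnmt1 was 0.69 ± 0.24 (SE, edgeR adjusted p 0.183).

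Averaged over the 6 times, Tet1 and Tet3 were lower in old liver, 2 of 7 members, where 5.98% of all genes were called and 2.59% were called lower. Tet3 was lower by a log2 difference of -0.29 ± 0.07 (SE, edgeR adjusted p 0.00905), with a lower estimate in old at 5 of 6 times. At 72, 96 and 120 the 3 old libraries all lay below the 3 young ones, with means of 74.4 ± 2.71, 69.3 ± 16.2 and 81.9 ± 13.3 CPM in old and 91.7 ± 9.65, 107 ± 17.8 and 110 ± 11.7 CPM in young (SD, n = 3). Tet1 was lower by -0.83 ± 0.22 (SE, edgeR adjusted p 0.0210), also at 5 of 6 times. Its old and young libraries did not overlap at 72, 96 and 120 either, with old means of 0.732, 0.799 and 1.01 CPM and young means of 2.27, 2.57 and 1.74 CPM. An old library held only 2 to 6 counts of Tet1 at 72, 2 to 4 at 96 and 3 to 4 at 120. The share of all genes without overlap at these times is not given here, so the separations of Tet3 and Tet1 are a description. Endothelial markers were lower in old than in young liver without overlap at 96 (289 to 326 against 370 to 390 CPM) and 120 (309 to 314 against 371 to 425 CPM), and overlapped at 72. At 96 the macrophage markers (489 to 692 against 745 to 869 CPM) and the T and B cell markers (4.72 to 5.91 against 7.79 to 9.39 CPM) were lower in old liver as well. Their part in the age differences of Tet1 and Tet3 was not tested. Without the libraries that hold Y-linked transcripts neither passed (Tet3 -0.16, adjusted p 0.294; Tet1 -0.83, adjusted p 0.106), and Tet1 was also lost without young 48 replicate 1 (adjusted p 0.0539). The averaged differences of Dnmt1 (0.18), Uhrf1 (0.32), Dnmt3a (-0.11), Dnmt3b (0.51) and Tet2 (-0.094) did not pass. Of the 6 times, the estimate was higher in old at 6 for Dnmt3b, 5 for Dnmt1 and 4 for Uhrf1. It was lower in old at 4 for Dnmt3a and for Tet2.

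For each member, an interaction test over the 5 later times asked if its course differed with age. None of the 7 passed, against 2.76% of all genes. At an unadjusted p under 0.05 there were 2 (Uhrf1, edgeR adjusted p 0.252, and Dnmt1, edgeR adjusted p 0.343), and DESeq2 called 0. The tests of single times called 0 of 7 at 48, 72, 96, 120 and 240, against 1.38%, 0%, 0.0149%, 0.00744% and 0% of all genes, with 1, 1, 1, 0 and 0 members at an unadjusted p under 0.05, and DESeq2 called 0 at each. At 48 the interaction estimate of Uhrf1 was -2.63 ± 1.20 (SE, edgeR adjusted p 0.275). Over 21 alternatives it ran from -3.21 to -2.05, and it passed in 0 of them.

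The cell cycle genes give the setting of these changes. Of 30 genes of DNA replication, 29 rose in young liver at 48 and 22 at 72, and in old liver 6, 16 and 14 rose at 48, 72 and 96. Of 20 genes of mitosis, 20 and 20 rose in young liver, and 2, 20 and 18 in old liver. The shares of all genes called in these comparisons were 21.9%, 17.4%, 24.1%, 12.4% and 6.82%. These shares count calls in either direction, and a share of rises alone is not given here. At old 48 not every call of the replication list was a rise, so its rises cannot be set directly against the share. The 2 of 20 mitosis genes called at old 48 did not exceed it. A score of replication, which averages log2(CPM + 1) of these 30 genes, stood at 2.46 ± 0.18 in young liver before (SD, n = 3), 4.79 ± 0.21 at 48 and 3.72 ± 0.41 at 72. In old liver it was 2.61 ± 0.35 before, 3.28 ± 0.55 at 48, 3.75 ± 0.22 at 72 and 3.80 ± 0.27 at 96. In old 48 replicate 2, the library with 1 count of Uhrf1, the score was 2.66, within the range of the old libraries before (2.33 to 3.00), and in replicates 1 and 3 it was 3.7 and 3.48. How much of the change of Uhrf1 goes with the number of cycling cells was not tested. At 48, 24 of the 30 replication genes and 20 of the 20 mitosis genes were lower in old than in young liver. Of all genes 11.2% were called in that comparison. However, a fit of only the 6 libraries compared called 0 of both lists.

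The genes whose pattern was most like that of each member were taken by Pearson's r of log2(CPM + 1) over the 36 libraries, among 12487 genes. For Uhrf1 these were Mcm5, a subunit of the replicative helicase (r 0.969), Top2a, a topoisomerase of dividing cells (r 0.956), and Fignl1 (r 0.952). For Dnmt1 they were Ssrp1, a subunit of the histone chaperone FACT (r 0.931), and the tubulin genes Tubb5 (r 0.929) and Tubb6 (r 0.909). For Tet3 they were Bmf (r 0.872), Mbtd1 (r 0.853) and Foxk1 (r 0.851), and for Tet2 Sned1 (r 0.839), Papss2 (r 0.825) and Zswim6 (r 0.806). The members with few counts or little change had weaker matches: Setd1b (r 0.729), Flcn (r 0.669) and Dyrk1b (r 0.659) for Dnmt3a, Wnt5a (r 0.707), Arntl (r 0.699) and Clpx (r 0.698) for Dnmt3b, and Hmcn1 (r 0.717), Mef2c (r 0.712) and Apoc1 (r 0.711) for Tet1. For deviations from group means, r with the first gene named was 0.955 for Uhrf1, 0.823 for Dnmt1, 0.571 for Tet3 and 0.821 for Tet2. It was 0.676 for Dnmt3a, 0.656 for Dnmt3b and 0.330 for Tet1, so the order of the members differed. The libraries share their groups and their scaling, and these values are a description.

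Several partners of the maintenance pair also rose. Of the 11 listed, 10 were tested (Dppa3 was not), and 5 rose in young liver at 48 and 5 at 72. The shares of all genes called at these times were 21.9% and 17.4%. The list's median log2 change was 0.49 at 48 and 0.41 at 72, against -0.01 and 0.01 for all genes. Hells, a chromatin remodeller needed for methylation of repeats, went from 2.51 ± 0.592 CPM before to 26.6 ± 3.54 CPM at 48 (SD, n = 3; log2 change 3.38 ± 0.48 SE, edgeR adjusted p 9.65e-06). Cdca7, the protein that recruits HELLS to chromatin, went from 1.96 ± 0.649 to 7.76 ± 1.07 CPM (log2 change 1.95 ± 0.38 SE, edgeR adjusted p 0.000315). Its relative Cdca7l was at 0.327 CPM before, under the level of 3 counts, and at 4.3 ± 2.26 CPM at 48 (edgeR adjusted p 0.00197). Uhrf2, the paralog of Uhrf1, rose by 0.78 ± 0.15 (edgeR adjusted p 0.000248), and Usp7, a deubiquitinase bound to DNMT1 and UHRF1, was at 89.8 ± 7.02 CPM before and 92.5 ± 11.6 CPM at 48.

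In old liver 2 of the 10 partners, Hells and Cdca7, rose at 48, at 72 and at 96. The shares of all genes called were 24.1%, 12.4% and 6.82%, and the count at 48 did not exceed its share. The list's median changes were 0.06, 0.19 and 0.17, against 0.01, -0.01 and -0.02 for all genes. Hells went from 2.14 ± 1.19 CPM before to 7.32 ± 3.91, 9.54 ± 0.995 and 13.2 ± 3.24 CPM (SD, n = 3), and its call at 48 was lost in 3 of 15 alternatives. Cdca7 reached 7.70 ± 2.68 CPM at 48, beside 7.76 ± 1.07 CPM in young liver. Between the ages at 48, 5 of the 10 were lower in old, with Cdca7l (-2.22), Hells (-1.86 ± 0.43, edgeR adjusted p 0.00443) and Uhrf2 (-0.84 ± 0.15, edgeR adjusted p 0.000599) the largest. Of all genes 11.2% were called in that comparison. The list's median was -0.49, against 0.02 for all genes. A fit of the 6 libraries alone called 0 of the 10. Pcna, the sliding clamp to which DNMT1 binds, had a mean of 104 ± 12.1 CPM at 48 in the young and of 35.2 ± 13.5 CPM in the old libraries (log2 difference -1.56 ± 0.27 SE, edgeR adjusted p 0.000515), also lost in that fit (adjusted p 0.0790).

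**Figure D4:**
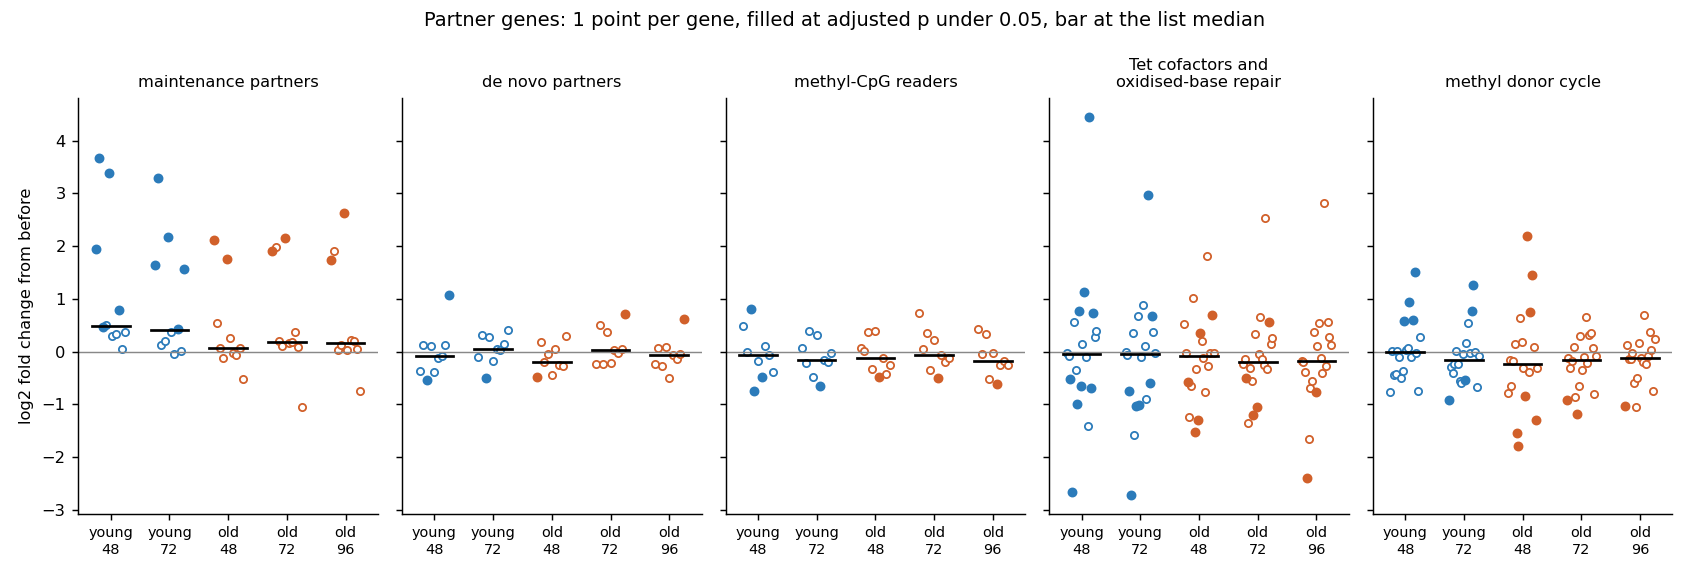
Log2 fold change from before (vertical axis) of the tested genes of 5 partner lists in young liver at 48 and 72 and old liver at 48, 72 and 96, with 1 point per gene, filled where the edgeR adjusted p was under 0.05, and a bar at the list median. The bars lie between -0.24 and 0.49, and the highest, 0.49, is that of the maintenance partners in young liver at 48.

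Of 10 partners of the de novo enzymes, 9 were tested (Dnmt3l was not). In young liver at 48, Whsc1 (the gene of NSD2, which makes the histone mark read by DNMT3A) rose from 67.9 ± 6.89 to 142 ± 11.5 CPM (SD, n = 3; log2 change 1.07 ± 0.17 SE, edgeR adjusted p 3.66e-05), and Ehmt1, a histone methyltransferase, fell by 0.54 (edgeR adjusted p 0.0112). Under total-count scaling only Whsc1 passed. At 72 Ehmt1 fell (-0.51, edgeR adjusted p 0.0209). In old liver 1 of 9 was called at each time: Atrx fell by 0.48 at 48 (edgeR adjusted p 0.0264), and Whsc1 rose by 0.71 at 72 (edgeR adjusted p 0.00678) and 0.62 at 96 (edgeR adjusted p 0.0265). The shares of all genes called were 21.9% and 17.4% in young liver at 48 and 72. They were 24.1%, 12.4% and 6.82% in old liver at 48, 72 and 96. None of the counts of this list stood far above its share. Whsc1 was lower in old than in young at 48 by -1.12 ± 0.17 (edgeR adjusted p 0.000214), which the fit of the 6 libraries did not call. The list's median at 48 was -0.07 in young and -0.21 in old, against -0.01 and 0.01 for all genes.

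Of the readers of methylated CpG sites, 9 of 9 listed were tested, and in young liver at 48 1 rose and 2 fell, 3 of 9 where 21.9% of all genes were called. The list takes in Mbd3, Mbd5 and Mbd6, which belong to the family of readers by sequence but are not known to bind methylated CpG sites in mammals. At that time Mbd5 fell by 0.74 (edgeR adjusted p 0.00537) and Mbd3, a subunit of the NuRD complex, rose by 0.80 (edgeR adjusted p 0.0146). The call of Mbd3 was lost in 3 of 15 alternatives and that of Mbd5 in 0 of 15. Between the ages at 48, Mbd6 was higher in old liver by 0.64 (edgeR adjusted p 0.00565), which the fit of the 6 libraries did not call. The median of the list was -0.07 at young 48, -0.16 at young 72 and -0.12 at old 48.

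Genes that supply the TET enzymes or repair their products went both ways. Of 20 listed, 18 were tested. In young liver 4 rose and 5 fell at 48, and 2 rose and 5 fell at 72. In old liver 2 rose and 3 fell at 48, 1 rose and 3 fell at 72, and 2 fell at 96. The shares of all genes called in these comparisons were 21.9%, 17.4%, 24.1%, 12.4% and 6.82%, and the 5 of 18 at old 48 stood close to theirs. List medians ran from -0.05 to -0.19. Idh1, which makes the TET cosubstrate 2-oxoglutarate in the cytosol, was at 281 ± 37.2 CPM in young liver before and 142 ± 48.2 CPM at 48 (SD, n = 3), and at 269 ± 24.1 and 93.4 ± 21.3 CPM in old liver (log2 change -1.52 ± 0.24 SE, edgeR adjusted p 6.32e-05). Ogt, a sugar transferase bound by TET2 and TET3, fell in young liver at 48 (-0.69 ± 0.16 SE, edgeR adjusted p 0.00246) and was at 106 ± 21.5 CPM before and 88.0 ± 14.5 CPM at 48 in old liver. Gadd45a, a stress gene linked to demethylation, fell at young 48 (-2.66) and young 72 (-2.72), and in old liver at 96 (-2.40, lost in 5 of 15 alternatives). Its estimates were still low at 240, though not called, at -2.14 in young (edgeR adjusted p 0.406) and -2.25 in old liver (edgeR adjusted p 0.241). The lower level was thus not limited to the times of the called falls. Neil3, a glycosylase that rises with replication, was at 0.369 CPM in young liver before, under the level of 3 counts, and at 8.87 ± 4.08 CPM at 48 (edgeR adjusted p 0.000486). Mbd4, a glycosylase for mismatched thymine at CpG, rose at young 48 (1.13 ± 0.35 SE, edgeR adjusted p 0.0186, lost in 3 of 15). Tdg, the main glycosylase for oxidised methylcytosine, had too few counts to be tested, with group means of 0.127 to 0.347 CPM from before to 96.

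The methyl donor cycle supplies S-adenosylmethionine to all methyltransferases, and its 18 listed genes were all tested. In young liver 4 rose at 48, and 2 rose and 2 fell at 72. In old liver 3 rose and 4 fell at 48, 2 fell at 72 and 1 at 96. The 4 of 18 at young 48 stood at the share of all genes called (21.9%), and the 4 of 18 at young 72 close to theirs (17.4%). In old liver these shares were 24.1%, 12.4% and 6.82% at 48, 72 and 96. The medians were -0.01 and -0.24 at 48 in young and old liver. Gnmt, a liver enzyme that uses up S-adenosylmethionine, fell in old liver at 48 by 1.79 ± 0.40 (SE, edgeR adjusted p 0.00183), from 1080 ± 163 to 312 ± 214 CPM, a call lost in the fit of the 6 libraries. Mat2a, the S-adenosylmethionine synthetase of proliferating cells, rose in young liver at 48 by 0.59 ± 0.16 (SE, edgeR adjusted p 0.00764) and was at 150 ± 11.1 and 171 ± 48.9 CPM in old liver before and at 48. Nnmt, which uses methyl groups on nicotinamide, rose at young 48 (1.51) and young 72 (1.27). At 48, 1 gene of the cycle was higher in old than in young liver and 3 were lower, where 11.2% of all genes were called. Among the lower ones were Mthfd1 (-0.71, edgeR adjusted p 0.0229) and Mat2b (-0.56, edgeR adjusted p 0.0466). The fit of the 6 libraries called 0 genes of the cycle.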

How the data were processed

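Per the labels' protocols, ribosomal RNA was depleted from DNase-treated total RNA of frozen liver. The authors deposited 1 table per library of unnormalized whole-number counts per gene symbol. The submitters' processing notes name bcl2fastq 2.20.0, Trimmomatic 0.39, FastQC 0.11.9, STAR 2.7.5b, SAMtools 1.10, Picard 2.20.8, featureCounts and deepTools 3.5.0, and the builds GRCm38 and mm10. The annotation and the use of strand are not given in the sources used here. Spike-ins are described in the labels, but the tables held 0 such rows, so values are relative to the library.

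Counts of all 36 libraries were fitted with edgeR 4.0.16 in R 4.3.3, with TMM scaling, filterByExpr on the 12 groups, 1 mean per group and quasi-likelihood F tests with robust estimates of the spread. P-values were adjusted by Benjamini-Hochberg over the 13436 genes within a comparison, with calls at an adjusted p below 0.05. A comparison used the groups at later times against before within an age, old against young at each time and averaged over 6 times, or the age by time interaction. The setting with robust estimates was chosen after results without them had been seen, and the latter are an added alternative. The alternatives were also scaling by total counts or by median of ratios, no filter, DESeq2 1.42.0, only the groups compared, the replicate number as a block, a term for Y-linked transcripts, leaving out the libraries that hold them, and leaving out each library. The code was tested on simulated data. CPM used TMM-scaled totals, scores and Pearson's r used log2(CPM + 1), and SE was the log2 change divided by the root of F. Statements that libraries of different groups did not overlap are descriptions, and the share of all genes without overlap is not given here.

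The members, partner lists and markers were chosen with earlier results of these data known. Named were all members, up to 3 called genes per list and comparison with the largest change (not each of them is repeated in the text), the 3 genes most like each member, and Hells, Cdca7, Usp7, Uhrf2, Tdg, Ogt, Mat2a, Mbd4, Pcna and Mki67. Nsd2 was found under its older symbol Whsc1. Spread between the 3 libraries within groups is all that p-values measure. In the main fit this spread was estimated for each gene over all groups together, not from the groups compared alone. A group with uneven libraries was therefore judged by a pooled spread. The fits of only the groups compared did not use the spread of the other groups. Gene models came from GENCODE M21 and promoters from RefSeq. Some genes of the partner lists are counted but not reported here by name.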

Additional observations from a re-analysis of the deposited data

Results flagged for a closer look

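The genes below changed from before differently in young and old liver by a test of the difference itself, edgeR's age by time interaction, with Benjamini-Hochberg adjustment over all genes. Over the 5 later times together it called 2.76% of all genes. It called 2 of 10 maintenance partners, 1 of 9 de novo partners, 0 of the readers, the TET cofactor and repair genes and the donor cycle genes, 10 of 30 replication genes and 14 of 20 mitosis genes. Those of the partner lists were Hells (adjusted p 0.0114, kept in 44 of 44 alternatives), Uhrf2 (adjusted p 0.0374, lost in 20 of 44) and Whsc1 (adjusted p 0.00498, lost in 1 of 44, without the libraries that hold Y-linked transcripts, at 0.0634). Pcna was 1 of the 10 replication genes (adjusted p 0.00914, kept in 44 of 44). At 48 alone the test called 1.38% of all genes, among them 1 of 10 maintenance partners, 5 of 30 replication genes and 0 of 20 mitosis genes. The change of Uhrf2 was lower in old than in young liver by -0.84 on the log2 scale (adjusted p 0.0397, lost in 12 of 21 alternatives). That of Pcna was lower by -1.87 (adjusted p 0.0185, lost in 4 of 21), and the other replication genes were Gins1 (-3.13), Rfc5 (-1.58), Rrm1 (-2.09) and Tyms (-2.45).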

How the results depend on the processing

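The values compared were calls of single genes and counts of called genes. A call was the same if it kept its side of the threshold, and a count if it moved by at most 1.5 times. A weaker value lost the call or had a lower count, and a stronger one the reverse. Over all results and alternatives, 3213 values were the same, 404 were weaker, 70 were stronger and 2 changed sign. Those 2 came without the libraries that hold Y-linked transcripts, where the averaged age difference was -0.061 for Uhrf1 (0.32 with them) and 0.028 for Dnmt3a (-0.11). The causes of these changes were not tested. Counts of called genes that moved over 1.5 times follow, with the reported count in brackets. DESeq2 called 1 member for old against young at 48 [0] and 1 at 96 [0], 5 at old 48 [3] and 1 at old 120 [0], 8 mitosis genes [2] and 2 readers [1] at old 48. Median-of-ratios scaling called 2 readers at old 48 [1]. Total-count scaling, which shifts the median of all genes by 0.211 at young 72, 0.127 at young 96, 0.103 at young 120 and 0.111 at old 72 (log2), called 1 de novo partner at young 48 [2], 2 readers at young 72 [1] and 0 at old 72 [1], and 1 donor gene at old 72 [2]. Without a filter there were 0 de novo partners at young 72 [1] and old 48 [1], 0 readers at old 48 and 72 [1], 1 TET cofactor or repair gene at old 96 [2], 2 donor genes at young 72 [4], 0 at old 72 [2] and old 96 [1], and 0 mitosis genes at old 48 [2]. Without robust estimates, an alternative added after seeing the data, 1 member differed between the ages at 48 [0], and 5 mitosis genes rose at old 48 [2]. Only the groups compared gave 1 member at young 96 [0] and 0 at old 48 [3]. For old against young at 48 they gave 0 maintenance [5], 0 de novo [1], 0 reader [1], 0 TET [2], 0 donor [4], 0 replication [24] and 0 mitosis [20] genes. They gave 3 maintenance partners at young 72 [5] and 0 at old 48 [2], 0 de novo partners at young 72, old 48 and old 96 [1], 0 readers at old 48, 72 and 96 [1], 2 TET genes at old 48 [5], 2 donor genes at young 72 [4] and 1 at old 48 [7], 0 replication genes at old 48 [7] and 10 at old 72 [16], and 0 mitosis genes at old 48 [2] and 3 at old 96 [18]. Some of these fits had too few counts to test Tet1. A term for Y-linked transcripts gave 1 member [0], 2 readers [1] and 4 TET genes [2] for old against young at 48. Without the libraries that hold them there was 1 member in the averaged age difference [2] and 0 at old 96 [3], 3 maintenance partners [5] and 9 mitosis genes [20] for old against young at 48, 2 de novo partners at old 72 [1], 2 readers at old 48 [1], 4 TET genes at young 48 [9] and 2 at old 72 [4], 2 donor genes at young 48 [4] and 0 at old 96 [1], and 0 mitosis genes at old 48 [2] and 3 at old 96 [18].

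Nothing in the labels says that a replicate number pairs libraries, and not every pair of libraries with the same number deviated together. Deviations of libraries with the same number had mean correlations of 0.0646, 0.0801 and 0.0103 for numbers 1, 2 and 3, the lowest pair being -0.364, although 23 of 36 libraries correlated best with a library of their own number, where 12 would if numbers were unrelated, a hint from the data, not from the design. With the number as a block, 1 member (Uhrf1, -2.01) was called for old against young at 48 [0]. With the block nested in age, 2 readers were called at young 72 [1] and old 48 [1], 2 donor genes at old 96 [1], 11 replication genes [7] and 1 mitosis gene [2] at old 48. Leaving out each library leaves 2 in its group. It gave 2 to 5 members at old 48 [3], 1 to 3 at old 72 [3], 0 to 3 at old 96 [3], 0 to 1 for old against young at 48 [0] and at 96 [0] and 1 to 2 for the averaged age difference [2]. Maintenance partners were 3 to 6 at young 72, 1 to 3 at old 48, 1 to 2 at old 72 and old 96 and 2 to 5 for old against young at 48. De novo partners were 1 to 2 at young 48, 0 to 1 at young 72, 0 to 2 at old 48, 1 to 2 at old 72 and 0 to 2 at old 96. Readers were 1 to 3 at young 48, 0 to 2 at old 48, 0 to 1 at old 72 and 0 to 2 at old 96. TET genes were 5 to 9 at young 48, 4 to 9 at young 72, 3 to 7 at old 48, 2 to 4 at old 72, 0 to 4 at old 96 and 0 to 3 for old against young at 48. Donor genes were 2 to 6 at young 48, 1 to 3 at young 72, 0 to 1 at old 72, 0 to 2 at old 96 and 2 to 6 for old against young at 48. Replication genes were 9 to 21 at young 72, 2 to 13 at old 48, 7 to 16 at old 72, 3 to 15 at old 96 and 11 to 25 for old against young at 48. Mitosis genes were 0 to 13 at old 48 and 5 to 19 at old 96. Tet1 and Dnmt3b, with at most 17 and 38 counts in a library, are limited by depth.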
